A study of Mus musculus with 9 samples.

Results

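Nuclear genes for the mitochondrial assembly of iron-sulfur clusters were followed in left ventricle of mice with MI and BPD treatment (MI+BPD), of mice with myocardial infarction alone (MI) and of sham-operated mice (Sham). The set was 9 genes taken by symbol from a deposited read count table of 55367 symbols: Nfs1, Lyrm4, Iscu, Hscb, Glrx5, Isca1, Isca2, Nfu1 and Bola3. All 9 were among the 15138 genes with enough counts to be tested. Bulk RNA of heart tissue, infarct core and the region around it included, was sequenced in 3 libraries a group at day 14 after infarction. The agent is named only as BPD, given during the proliferative phase, and the labels state no dose, strain, sex or age. Nothing states that each library came from a separate animal, so the p-values measure only the spread between these libraries. The design asks how this treatment changes the infarcted ventricle, in a study of iron handling and fibroblast activation.

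Iron-sulfur clusters are small cofactors of iron and sulfur that carry electrons or hold substrates in enzymes of respiration, the citrate cycle, lipoate synthesis and DNA metabolism. In mitochondria, the desulfurase Nfs1, held stable by Lyrm4 (ISD11), takes sulfur from cysteine, and the cluster is built on the scaffold Iscu with electrons from a ferredoxin. The co-chaperone Hscb and the chaperone Hspa9 release it, and the monothiol glutaredoxin Glrx5 passes it on. Isca1 and Isca2 form larger clusters, and Nfu1 and Bola3 bring these to client proteins such as lipoyl synthase and respiratory complex I. Heart muscle is dense in mitochondria and holds many such clients.

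Promoters of 7 of the 9 genes were found in the RefSeq promoter table (GRCm38.p6), each window running from 250 bases before to 50 bases after the annotated start. Iscu and Hscb were not matched. The windows were searched on both strands for motifs of 3 factors that act on nuclear genes of mitochondria. The GABP motif CCGGAAG was in windows of 3 of the 7 genes (Nfs1, Isca1 and Isca2), of 2683 of all 27025 genes, and in 8.86% of all 32851 promoter windows. The ERR motif AAGGTCA was in 1 of the 7 (Isca1), in 1454 of the 27025 genes, and in 4.72% of all windows. The NRF1 motif GCGCATGC was in none of the 7, in 824 of the 27025 genes, and in 2.71% of all windows. No pair of these motifs shared bases in the stretches below, which are shown because they hold the matches. Glrx5, Nfu1, Bola3 and Lyrm4 had no match, and a relation of these motifs to the changes was not tested. Capitals mark the matches, sequences run 5′ to 3′ on the strand of the gene, and positions count from the annotated start. The Nfs1 stretch is chr2:156144167-156144286 (minus strand, -100 to 20, matches at -15 and 8), the Isca1 stretch chr13:59769899-59770019 (minus strand, -230 to -110, GABP match at -216 and ERR match at -135), and the Isca2 stretch chr12:84773170-84773289 (plus strand, -100 to 20, match at -29).
Nfs1: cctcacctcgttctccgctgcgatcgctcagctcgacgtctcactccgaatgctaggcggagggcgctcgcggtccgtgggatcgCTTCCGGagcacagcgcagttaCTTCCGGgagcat
Isca1: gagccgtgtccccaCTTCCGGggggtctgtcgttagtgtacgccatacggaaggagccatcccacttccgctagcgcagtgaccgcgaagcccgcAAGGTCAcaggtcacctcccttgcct
Isca2: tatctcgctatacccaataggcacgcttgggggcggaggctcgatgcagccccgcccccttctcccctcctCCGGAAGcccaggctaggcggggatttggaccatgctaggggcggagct
A match describes letters in a window and shows no binding.

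The libraries held 17006222 to 17424302 counts in MI+BPD, 19101748 to 19269072 in MI and 14451410 to 17703461 in Sham. Transcripts of the mitochondrial genome made up 17.6% to 25.7% of the counts in MI+BPD, 11.4% to 18.2% in MI and 34.4% to 35.2% in Sham. Values below are read counts scaled to a common library size (CPM) with the trimmed mean of M values (TMM), which aligns the bulk of genes between libraries. On that scale the median gene changed by 0.07 (log2) in MI against Sham, 0.04 in MI+BPD against Sham and 0.00 in MI+BPD against MI. When only library totals were used for scaling, the median moved to 0.81, 0.57 and -0.20. All 20 heart muscle markers had enough counts to be tested, and their summed CPM was 46010 to 69010 in MI+BPD, 27900 to 49060 in MI and 121400 to 125800 in Sham. Within its group, MI+BPD replicate 1 held the most heart muscle transcripts (69011 CPM), and so did MI replicate 3 (49057 CPM). In bulk tissue, fewer cells of a type and less RNA per cell cannot be told apart. Erythroid markers summed to 105 to 129 CPM in MI+BPD, 87.2 to 114 in MI and 104 to 148 in Sham, and none of the 5 tested passed in any comparison on the TMM scale, while Hba-a1 was called higher in MI against Sham with library totals only.

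MI against Sham gives the response of this gene set to infarction. All 9 genes were lower in MI on the TMM scale, by 0.46 to 1.59 log2 units with a median of -1.22. With library totals only the median was -0.50 and the values were smaller throughout: -0.87 for Isca1, -0.80 for Bola3, -0.61 for Nfs1, -0.61 for Glrx5, -0.50 for Isca2 and -0.21 for Nfu1 were called lower, while Lyrm4 (-0.14), Iscu (-0.03) and Hscb (0.27) did not pass. Isca1 and Bola3 had the lowest levels relative to Sham, at 33.2% and 35.1% of it, and Iscu and Hscb the highest, at 59.1% and 72.9%. The levels did not follow the order of the steps: Nfs1, which supplies sulfur, was at 39.7% and Nfu1, of cluster delivery, at 52.2%. Calls rest on an adjusted p under 0.05 in edgeR's quasi-likelihood test, adjusted by Benjamini-Hochberg across every tested gene. The 9 calls among 9 genes, all lower, stand beside 31.9% of all tested genes called lower and 37% called higher. These 6 calls with library totals stand beside 11.7% of all tested genes called lower and 69.3% called higher. The libraries of MI and Sham did not overlap for any of the 9, which held for 74.4% of all tested genes. Summed heart muscle markers differed in the same direction without overlap, and the share of each gene's change that goes with them cannot be told apart in this comparison.

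Sulfur is supplied by Nfs1 with its partner Lyrm4. Nfs1 had 42.1, 28.3 and 31.1 CPM in MI+BPD, 21.1, 22.7 and 31.6 CPM in MI, and 58.2, 64.7 and 67.0 CPM in Sham (libraries 1, 2 and 3 in each group). Every Sham library lay above every other library, and MI+BPD and MI overlapped. The change of Nfs1 in MI against Sham was -1.33 ± 0.18 (log2 ± SE, adjusted p = 0.000203) and in MI+BPD against Sham -0.91 ± 0.18 (adjusted p = 0.00246). Lyrm4, one of the least abundant members, had 8.27, 6.37 and 7.52 CPM in MI+BPD, 5.54, 7.49 and 7.00 CPM in MI, and 13.9, 11.4 and 11.3 CPM in Sham. Again the Sham libraries were the 3 highest. Lyrm4 changed by -0.87 ± 0.16 in MI against Sham (adjusted p = 0.000917) and by -0.72 ± 0.16 in MI+BPD against Sham (adjusted p = 0.00374). Both Lyrm4 calls ended with library totals only, at -0.14 in MI against Sham (adjusted p = 0.420) and -0.20 in MI+BPD against Sham (adjusted p = 0.263). Exons of Nfs1 (5900 counts in all libraries) overlap those of Romo1 (4655 counts) on the opposite strand. Exons of Lyrm4 (1316 counts) overlap those of Fars2 (4353 counts), also on the opposite strand. The labels give no strand setting for the counting, so reads of these pairs may not be fully separated. The values of Lyrm4 and Nfs1 are uncertain on that account. Exons of Gm28036, on the same strand as Nfs1, also overlap those of Nfs1, and it had 0 counts.

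The scaffold step rests on Iscu and on Hscb, which hands the finished cluster to the chaperone. Iscu had 52.8, 49.2 and 47.5 CPM in MI+BPD, 36.9, 40.9 and 49.1 CPM in MI, and 72.6, 70.9 and 71.3 CPM in Sham. The Sham libraries were nearly equal (71.6 ± 0.883 CPM, SD, n = 3), and the highest of the other 6 was well below them. Iscu changed by -0.76 ± 0.10 in MI against Sham (adjusted p = 0.000181) and by -0.52 ± 0.10 in MI+BPD against Sham (adjusted p = 0.00216). With library totals only, the difference of Iscu was -0.03 in MI against Sham (adjusted p = 0.698) and 0.0015 in MI+BPD against Sham (adjusted p = 0.989), and neither passed. Hscb had the lowest CPM of the set in Sham, with 5.57, 6.93 and 7.67 CPM in MI+BPD, 5.94, 6.35 and 6.72 CPM in MI, and 9.70, 7.61 and 8.77 CPM in Sham. MI and Sham did not overlap, while MI+BPD replicate 3 lay above Sham replicate 2. Hscb changed by -0.46 ± 0.15 in MI against Sham (adjusted p = 0.0206). Its difference of -0.37 ± 0.15 in MI+BPD against Sham did not pass (adjusted p = 0.0577). The MI call of Hscb ended without Sham replicate 1 (adjusted p = 0.0763), Sham replicate 3 (0.0530), MI replicate 1 (0.0622) or MI replicate 2 (0.0517), and with library totals only the difference was 0.27 (adjusted p = 0.182), opposite in sign.

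Glrx5 carries the cluster from the scaffold to the later steps. It had 28.3, 21.2 and 19.8 CPM in MI+BPD, 15.1, 18.5 and 23.4 CPM in MI, and 45.3, 45.0 and 52.8 CPM in Sham. Sham stood clear of both infarcted groups, which overlapped. The change was -1.33 ± 0.18 in MI against Sham (adjusted p = 0.000196) and -1.05 ± 0.18 in MI+BPD against Sham (adjusted p = 0.00125).

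Isca1 and Isca2 act together in forming the larger clusters. Isca1 had 159.6, 104 and 102 CPM in MI+BPD, 72.1, 77.6 and 109 CPM in MI, and 249.5, 262 and 266 CPM in Sham. MI+BPD replicate 1 was the highest infarcted library and still far below Sham. Isca1 changed by -1.59 ± 0.20 in MI against Sham (adjusted p = 0.000158), the largest change of the 9 there, and by -1.09 ± 0.20 in MI+BPD against Sham (adjusted p = 0.0018). Isca2 had 26.7, 23.3 and 23.6 CPM in MI+BPD, 16.4, 18.1 and 23.4 CPM in MI, and 42.4, 47.3 and 45.0 CPM in Sham. All infarcted libraries were below Sham, and MI replicate 3 reached the level of MI+BPD replicates 2 and 3. Isca2 changed by -1.22 ± 0.13 in MI against Sham (adjusted p = 6.92e-05) and by -0.87 ± 0.13 in MI+BPD against Sham (adjusted p = 0.000621). Isca1 has a near-identical copy, AK157302 (98.955% over 1914 bases, 101 counts in all libraries), and an antisense neighbour, Etohd2 (306 counts), both small beside the counts of Isca1. Exons of Gm49354, on the same strand, overlap those of Isca1, and it had 0 counts.

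Nfu1 and Bola3 deliver clusters to clients, and loss of either gene in people causes a multiple mitochondrial dysfunctions syndrome. Nfu1 had 32.4, 29.7 and 27.0 CPM in MI+BPD, 23.0, 22.8 and 29.5 CPM in MI, and 45.8, 47.0 and 51.3 CPM in Sham. Its infarcted libraries all lay below Sham. Nfu1 changed by -0.94 ± 0.12 in MI against Sham (adjusted p = 0.000132) and by -0.69 ± 0.12 in MI+BPD against Sham (adjusted p = 0.00113), and with library totals only by -0.21 (adjusted p = 0.0486) and -0.17 (adjusted p = 0.112). Bola3 had 55.4, 45.1 and 41.4 CPM in MI+BPD, 24.9, 33.3 and 48.2 CPM in MI, and 101, 102 and 100.3 CPM in Sham. The MI libraries of Bola3 were wide apart (35.5 ± 11.8 CPM), the Sham libraries close together (101 ± 0.789 CPM, SD, n = 3 each). Bola3 changed by -1.51 ± 0.21 in MI against Sham (adjusted p = 0.00022) and by -1.10 ± 0.21 in MI+BPD against Sham (adjusted p = 0.00199).

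**Figure D1:**
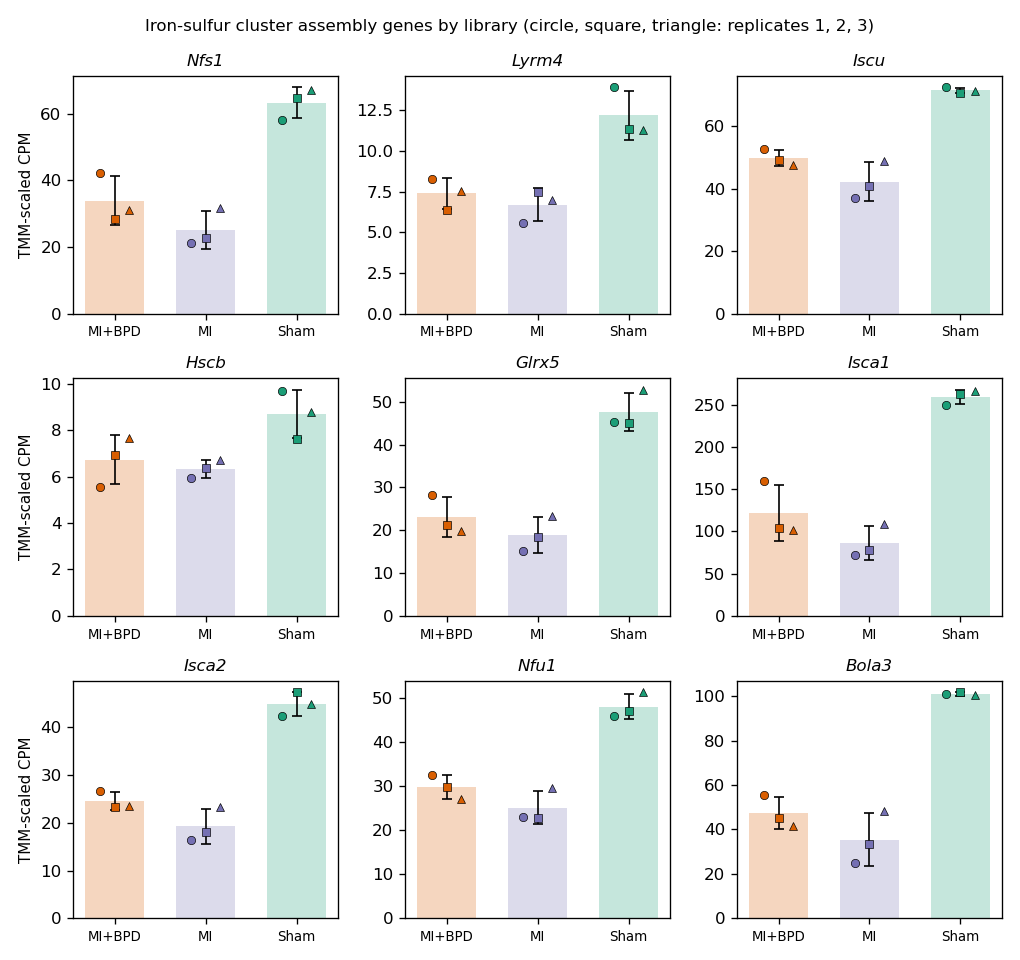
TMM-scaled CPM of the 9 genes (y axis, one panel a gene) in MI+BPD, MI and Sham; points are libraries, bars the mean and error bars the SD of 3 libraries. Sham libraries lie above all MI libraries in each panel, MI+BPD and MI overlap in each, and Hscb shows the smallest distance to Sham.

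MI+BPD against Sham uses the same Sham libraries as MI against Sham, so the comparisons are not independent. Of the 9 genes, 8 were called lower in MI+BPD, beside 27.8% of all tested genes called lower and 31.8% called higher. These 8 also had no overlap between MI+BPD and Sham, which held for 68.5% of all tested genes. Levels in MI+BPD were 46.8% of Sham for Bola3, 47.0% for Isca1, 48.3% for Glrx5, 69.6% for Iscu and 77.5% for Hscb. The fits without each library in turn called 8 or 9 of the 9 genes, the ninth being Hscb. With library totals only, 5 genes were called lower in MI+BPD against Sham, beside 9.14% of all tested genes called lower and 60.3% called higher. Their values were -0.58 for Isca1, -0.58 for Bola3, -0.53 for Glrx5, -0.39 for Nfs1 and -0.35 for Isca2, and Hscb was at 0.17. Nfs1, Isca1, Isca2, Glrx5 and Bola3 were called lower with TMM and with library totals only in both comparisons. Median-ratio factors called all 9 lower in both, beside 5087 (MI) and 4483 (MI+BPD) of 15138 tested genes. Upper-quartile factors called 9 and 8 lower, beside 4472 and 4114 genes. Library totals without mitochondrial and haemoglobin genes, chosen after seeing the data, called 8 and 8, beside 3155 and 2648 of 15213. Iscu, Nfu1 and Lyrm4 lost calls against Sham only with library totals only.

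MI+BPD against MI asks what the treatment did to these genes in infarcted hearts. Point estimates were positive for all 9, between 0.09 for Hscb and 0.50 for Isca1, and none passed. With library totals only, Lyrm4 (-0.065) and Hscb (-0.11) were negative. All 20 heart muscle markers were positive too on the TMM scale, with a median of 0.59, and none passed. No gene of the 15138 was called in this comparison (0%); 2043 had an unadjusted p under 0.05, DESeq2 called 51 and limma-voom 1063. The libraries of the groups overlapped for each of the 9 genes, while 13.9% of all tested genes had no overlap. Isca1 averaged 122 ± 32.8 CPM in MI+BPD and 86.1 ± 19.7 CPM in MI (SD, n = 3 each), a difference of 0.50 ± 0.20 (log2 ± SE, adjusted p = 0.369 in edgeR). Nfs1 averaged 33.8 ± 7.31 CPM in MI+BPD and 25.2 ± 5.65 CPM in MI, a difference of 0.43 ± 0.18 (adjusted p = 0.369 in edgeR). These 2 genes, Isca2 (0.35 ± 0.13) and Iscu (0.24 ± 0.10) had an unadjusted p under 0.05. The differences of Bola3 (0.42 ± 0.21), Glrx5 (0.28 ± 0.18), Nfu1 (0.24 ± 0.12), Lyrm4 (0.14 ± 0.16) and Hscb (0.09 ± 0.15) did not reach it.

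MI replicate 3 decided the count in MI+BPD against MI. Without it, edgeR called 1353 of 15453 tested genes, 1126 of them higher in MI+BPD and 227 lower. Of the 9 members, 5 were called, all higher in MI+BPD: Iscu (0.36, adjusted p = 0.0346), Nfs1 (0.62, 0.0463), Isca2 (0.51, 0.0334), Nfu1 (0.38, 0.0442) and Bola3 (0.70, 0.0346). Without any other single library no gene was called. The median difference of the 9 was 0.46 without MI replicate 3 and 0.19 without MI replicate 1 or MI+BPD replicate 1. Counts of library pairs were compared by a chi-square per degree of freedom. MI replicate 3 was at 8.30 and 14.8 from MI+BPD replicates 2 and 3, and at 87.2 and 67.2 from MI replicates 1 and 2. MI+BPD replicate 1 was at 78.1 and 70.4 from replicates 2 and 3 of its group. Limma-voom with quality weights called Isca2 alone of the 9 (adjusted p = 0.0401). MI replicate 3 was the MI library highest in 8 of the 9 genes, Lyrm4 being the exception, and it also held the most heart muscle transcripts of the MI group. With the mean level of heart muscle markers as a covariate, in the 6 infarcted libraries alone, the differences of the 9 genes ran from -0.16 for Glrx5 to 0.14 for Hscb and 6 were negative. With MI replicate 1 and MI+BPD replicate 1 left out together, Glrx5 was at -0.04 and Lyrm4 at -0.07.

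**Figure D2:**
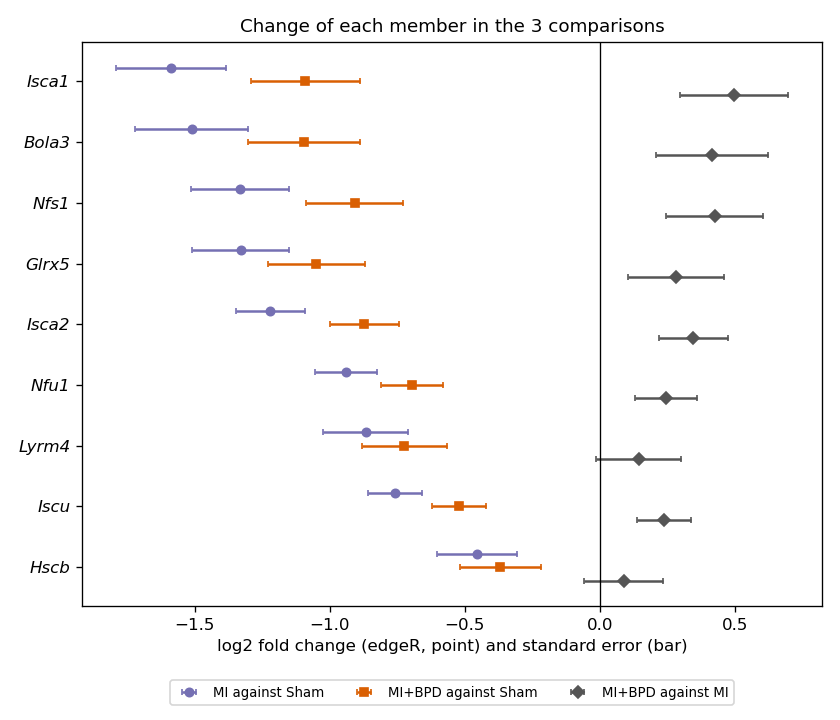
Log2 fold change (x axis; point, with its standard error as a bar) of the 9 genes in the 3 comparisons, genes ordered by MI against Sham. Changes against Sham run from -1.59 for Isca1 to -0.37 for Hscb, and those of MI+BPD against MI from 0.09 to 0.50 with none passing the test. With library totals only, Hscb is positive in both comparisons with Sham, Iscu is positive in MI+BPD against Sham, and Lyrm4 and Hscb are negative in MI+BPD against MI.

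Ratios of 2 members' counts within a library do not depend on the scaling and show unequal change. The ratio of Isca1 to the scaffold Iscu was 3.03, 2.11 and 2.14 in MI+BPD, 1.95, 1.90 and 2.22 in MI, and 3.44, 3.70 and 3.73 in Sham. Both infarcted groups lay below Sham, and MI+BPD replicate 1 came closest to it. The ratio of Nfs1 to Iscu was 0.798, 0.575 and 0.654 in MI+BPD, 0.572, 0.556 and 0.645 in MI, and 0.802, 0.914 and 0.940 in Sham. Here MI+BPD replicate 1 nearly touched the lowest Sham library. The 2 genes of cluster delivery changed unequally as well, with a ratio of Bola3 to Nfu1 of 1.71, 1.52 and 1.53 in MI+BPD, 1.08, 1.46 and 1.64 in MI, and 2.20, 2.17 and 1.95 in Sham. All infarcted libraries lay below Sham, and MI and MI+BPD overlapped. The ratio of Isca1 to its partner Isca2 was 5.98, 4.47 and 4.31 in MI+BPD, 4.39, 4.30 and 4.65 in MI, and 5.89, 5.54 and 5.91 in Sham. MI lay below Sham, and MI+BPD replicate 1 was the highest of all 9 libraries. Bola3 to Glrx5, Nfs1 to Lyrm4 and Isca1 to Bola3 overlapped between MI and Sham. Nfu1 to Iscu averaged 0.5936 in MI and 0.6715 in Sham, without overlap. Hscb to Iscu was higher in MI, with a mean of 0.151 beside 0.121 in Sham, also without overlap. These pairs were picked without a rule, and the share of all gene pairs without overlap was not computed.

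The order of the levels per length was read as CPM per kilobase of the principal transcript in GENCODE M21. In Sham, Isca1 had the highest level (133 ± 4.39, SD, n = 3), followed by Iscu (74.8 ± 0.923). Isca2 followed at 50.8 and Bola3 at 43.7, then Nfu1 at 40.2 and Nfs1 at 30.9. The lowest were Glrx5 at 16.3, Hscb at 10.8 and Lyrm4 at 5.84. In MI the means of Isca1 (44.4 ± 10.1) and Iscu (44.2 ± 6.46) were within their spread, where Sham had them far apart. In MI+BPD the means were 62.7 ± 16.9 for Isca1 and 52.1 ± 2.79 for Iscu, also within their spread. Each neighbour in the Sham order differed by more than the sum of their SDs. In MI and MI+BPD the order put Nfu1 before Bola3 and Hscb before Glrx5, and the steps between Isca2, Nfu1, Bola3 and Nfs1 were smaller than that sum. Hscb averaged 8.36 in MI+BPD, 7.88 in MI and 10.8 in Sham, and Glrx5 7.90 in MI+BPD, 6.50 in MI and 16.3 in Sham, so these 2 were within their spread only in the infarcted groups. The order depends on the length used. Over all annotated exons (10680 bases for Isca1), the Sham level of Isca1 was 24.3, below Iscu at 32.9 and Bola3 at 31.4. Nfu1 was then at 9.96 in Sham, below Nfs1 at 17.5 and Glrx5 at 12.95. By that length Bola3 stayed above Nfu1 in MI (11.04 against 5.20) and in MI+BPD (14.7 against 6.16). Hscb still came before Glrx5 in both infarcted groups.

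The 9 genes were also set against 20 other nuclear genes of mitochondria, as the log2 level of each gene minus the mean log2 level of those 20 in the same library. On the TMM scale all 20 were called lower in MI against Sham, with a median change of -1.24 beside -1.22 for the 9 genes. By library totals alone, 16 were called lower and 1 (Tomm20) higher, with a median of -0.51 beside -0.50 for the 9 genes. The difference of this relative level, MI minus Sham, was between -0.06 and 0.06 for Nfs1, Glrx5 and Isca2, and MI and Sham overlapped for each of them. Iscu had relative levels of -1.40, -1.11 and -1.13 in MI+BPD, -1.04, -1.02 and -1.22 in MI, and -1.54, -1.63 and -1.66 in Sham. Every infarcted library was above every Sham library, a difference of 0.52 in MI. Isca1 had relative levels of 0.19, -0.04 and -0.03 in MI+BPD, -0.08, -0.10 and -0.07 in MI, and 0.24, 0.25 and 0.24 in Sham. Its infarcted libraries were all below Sham, by 0.33 in MI. Nfu1 was 0.34 higher and Hscb 0.84 higher relative to these genes in MI without overlap, and Bola3 0.28 lower. Lyrm4 was 0.42 higher, with overlap. In all, 5 of the 9 had no overlap in this measure, a smaller share than the 90.8% among all tested genes. Set against 14 client genes of the mitochondrial pathway instead, the same measure was 1.13 for Hscb, 0.81 for Iscu, 0.71 for Lyrm4, 0.63 for Nfu1, 0.35 for Isca2, 0.23 for Nfs1 and 0.23 for Glrx5. These 7 had no overlap between MI and Sham, as did 92.8% of all tested genes. Bola3 (0.02) and Isca1 (-0.04) overlapped.

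**Figure D3:**
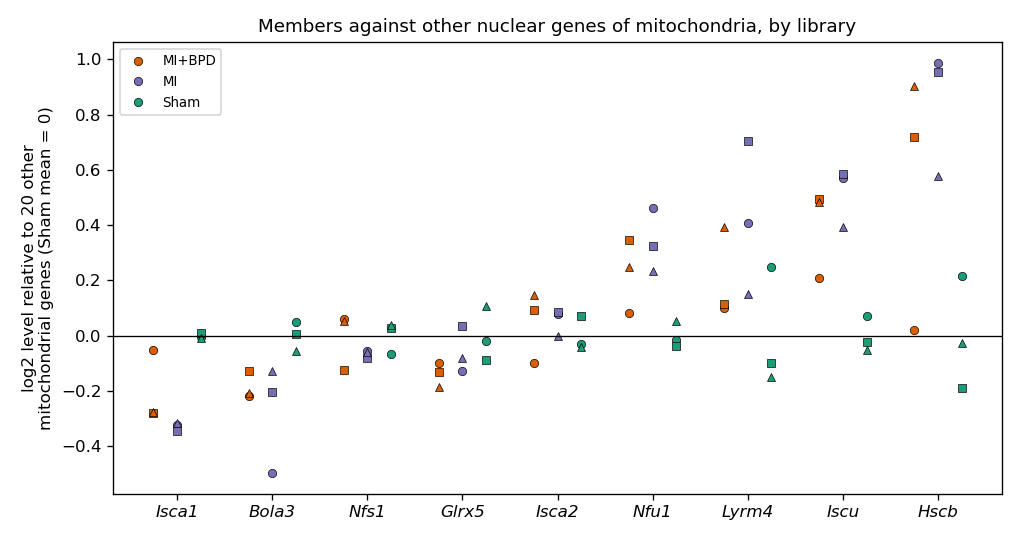
Log2 level of each gene relative to 20 other nuclear genes of mitochondria in the same library, with the Sham mean set to 0 (y axis); points are libraries of MI+BPD, MI and Sham, circle, square and triangle being replicates 1, 2 and 3. MI libraries of Isca1 and Bola3 lie below Sham, those of Nfu1, Iscu and Hscb above it, and those of Nfs1, Glrx5 and Isca2 overlap it.

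Partners of the mitochondrial machinery fell in MI against Sham in 10 of 13 tested genes, with a median of -1.25, and 3 did not pass. Of all tested genes, 31.9% were called lower there. Grpel1, a nucleotide exchange factor of the mitochondrial chaperone, averaged 50.01 ± 7.47 CPM in MI+BPD, 37.9 ± 9.11 CPM in MI and 95.6 ± 5.10 CPM in Sham (SD, n = 3 each), a change of -1.34 ± 0.16 in MI against Sham (adjusted p = 0.000131). The ferredoxin Fdx1 changed by -1.36 ± 0.18 in MI against Sham. Fdx2, also a ferredoxin of this list, had too few counts to be tested. The 3 that did not pass were the iron importers Slc25a37 (0.17, adjusted p = 0.0733) and Slc25a28 (-0.21, 0.0823) and the ferredoxin reductase Fdxr (0.32, 0.0740). These 3 were called higher and 8 partners lower with library totals only, with a median of -0.52. On that scale 69.3% of all tested genes were called higher and 11.7% lower. In MI+BPD against Sham 9 of the 13 were called lower, with a median of -0.77, beside 27.8% of all tested genes.

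Of the mitochondrial clients, 13 of 14 tested genes fell in MI against Sham, with a median of -1.82, and 12 with a median of -1.11 when library totals were the only scaling. Of all tested genes, 31.9% were called lower there, and 11.7% with library totals only. Ndufs1, a cluster-binding subunit of complex I, averaged 394 ± 104 CPM in MI+BPD, 252 ± 87.8 CPM in MI and 942 ± 24.96 CPM in Sham, a change of -1.90 ± 0.26 in MI against Sham. The complex I subunits Ndufs7 and Ndufs8 changed by -1.80 ± 0.22 and -1.68 ± 0.21, and Etfdh, which feeds electrons from fat oxidation to ubiquinone, by -2.27 ± 0.31. Mocs1, of molybdenum cofactor synthesis, was the exception at -0.01 (adjusted p = 0.958), and with library totals only it was called higher. The lipoate pathway was called lower in 8 of 8 genes in both infarcted groups, with a median of -0.99 in MI+BPD and -1.38 in MI. By library totals alone, 5 of the 8 were called lower in MI+BPD (median -0.48) and 6 in MI (median -0.65). In MI+BPD against Sham, 27.8% of all tested genes were called lower on the TMM scale and 9.14% with library totals only. Lias, lipoyl synthase and a client of Nfu1 and Bola3, averaged 29.3 ± 3.71 CPM in MI+BPD, 24.1 ± 2.54 CPM in MI and 50.7 ± 3.87 CPM in Sham. It changed by -1.07 ± 0.11 in MI against Sham (adjusted p = 7.2e-05) in edgeR. Dbt, a lipoate-bearing subunit of branched-chain amino acid breakdown, changed by -1.95 ± 0.22, the lipoyl transferase Lipt1 by -1.06 ± 0.14 and Gcsh, the lipoate carrier of glycine cleavage, by -0.86 ± 0.10. Gcsh and Lipt2 lost the call under library totals in both comparisons with Sham, and Lipt1 in MI+BPD against Sham (adjusted p = 0.0893).

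Cytosolic assembly was mixed, with 7 of 12 tested genes lower and 3 higher in MI against Sham and a median of -0.44. Glrx3, a cytosolic glutaredoxin, changed by -0.97 ± 0.11, Ciao3 by -1.14 ± 0.14 and Ciapin1 by -1.02 ± 0.15, while Ciao2a changed by -0.63 ± 0.09 and was at 0.11 with library totals only (adjusted p = 0.236), opposite in sign. The early scaffold proteins Nubp1 and Nubp2 were higher, by 0.53 ± 0.13 and 0.32 ± 0.10, as was Ndor1, the reductase that passes electrons to Ciapin1, by 0.64 ± 0.24. With library totals only the median of the 12 was 0.29, with 3 called lower and 6 higher. The median of all tested genes on that scale was 0.81, above that of the 12. Cytosolic and nuclear clients had 8 lower, 7 higher and 8 that did not pass among 23 tested, and a median of -0.07. With library totals only, 1 was lower and 17 higher, with a median of 0.66. Of all tested genes, 31.9% were called lower and 37% higher, and 11.7% and 69.3% with library totals only. On the TMM scale the counts of these clients were close to those shares. Dpyd, of pyrimidine breakdown, changed by -1.65 ± 0.19, and Aco1, the iron regulatory protein that holds a cluster when iron is plentiful, by -0.44 ± 0.08 (adjusted p = 0.000891), with the opposite sign (0.30) under library totals. None of the genes in these lists was called in MI+BPD against MI, where the median was 0.28 for the 9 genes, 0.31 for partners, 0.60 for mitochondrial clients, 0.39 for the lipoate pathway, 0.06 for cytosolic assembly and 0.06 for cytosolic and nuclear clients. The 20 other nuclear genes of mitochondria had a median of 0.30 there and the 20 heart muscle markers 0.59. All 20 were positive in each of these lists, and none was called.

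**Figure D4:**
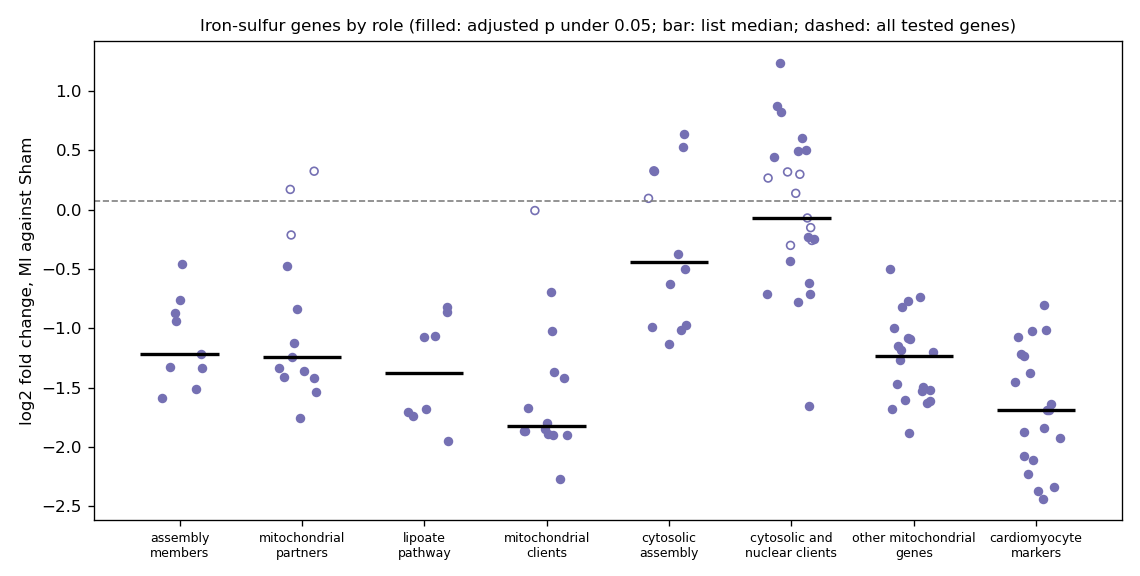
Log2 fold change in MI against Sham (y axis) for genes of each list (x axis); each point is a gene, filled where called at an adjusted p under 0.05, black bars are list medians and the dashed line is the median of all tested genes. Medians are -1.22 for the 9 genes, -1.82 for mitochondrial clients, -0.44 for cytosolic assembly and -0.07 for cytosolic and nuclear clients. Those of the last 2 lists are positive with library totals only (0.29 and 0.66), below the 0.81 of all tested genes on that scale.

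Marker lists of heart muscle, fibroblasts and macrophages differed from Sham in both infarcted groups, while the direction of endothelial calls depended on the scaling. All 20 heart muscle markers were called lower on the TMM scale in MI+BPD (median -1.11) and in MI (median -1.69). By library totals alone, 14 were called lower in MI+BPD (median -0.60) and 17 in MI (median -0.98). All 10 fibroblast markers were called higher in both, with summed CPM of 22700 to 24520 in MI+BPD, 16860 to 26340 in MI and 1250 to 1444 in Sham. All 11 macrophage markers were also called higher in both, with sums of 1111 to 1458 CPM in MI+BPD, 884.5 to 1503 CPM in MI and 418 to 495 CPM in Sham. Of 9 endothelial markers 5 were called lower in MI+BPD and 6 in MI on the TMM scale, but with library totals only 4 were called higher and 0 lower in MI+BPD, and 5 higher and 2 lower in MI. Of all tested genes, 27.8% were called lower and 31.8% higher in MI+BPD, and 31.9% and 37% in MI. With library totals only these shares were 9.14% and 60.3% in MI+BPD, and 11.7% and 69.3% in MI. The part of these cell types in the changes of the 9 genes was not tested.

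The genes whose profile was most like the mean of the 9 over all 9 libraries were Ktn1, Cacna1c, Mapkapk2, Vdac2 and Maip1. Likeness was the root mean square difference of centred log2 CPM, 0.0366 for Ktn1 and 0.0414 for Maip1, among 10806 genes with a median of 0.506. Within the set, Isca2 was closest to the mean profile (0.0672) and Hscb farthest from it (0.351). The single genes most like each member were Gadd45gip1 for Nfs1 (0.0371), Mrps16 for Lyrm4 (0.0917), Mzt1 for Iscu (0.0240) and Zmat5 for Hscb (0.0820). For the later steps they were Tbrg4 for Glrx5 (0.0609), Stard7 for Isca1 (0.0413), Mtfr1 for Isca2 (0.0476), Glrx3 for Nfu1 (0.0318) and Atp5mpl for Bola3 (0.0465).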

How the data were processed

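The authors deposited raw counts by gene symbol for 9 libraries, with no normalization. Per the labels' protocols, RNA was extracted with TRIzol and sequenced as 150 bp paired-end reads. The submitters' processing notes name STAR (no version) and the builds mm10, GRCm39 and mm39 with no role. Which counter, strand setting and annotation were used is not stated, so genes were matched by symbol. No unique molecular identifiers are recorded.

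Counts were tested in R 4.3.3 with edgeR 4.0.16: filterByExpr (minimum count 10, minimum total 15), TMM factors, and robust quasi-likelihood models of the 3 groups over all 9 libraries (6 residual degrees of freedom, biological coefficient of variation 0.167). Tests were 2-sided, with Benjamini-Hochberg adjustment over 15138 genes, which held 99.9% of counts. The procedure was tested on simulated data. The members and lists were chosen with earlier results of these data known. Named genes were the 9 members, up to 4 of each related list with the smallest adjusted p in MI against Sham, and the most like profiles; some genes the rule names are not reported here. Genes outside this rule that did not pass, or that went against their list, were chosen after their values were seen. Alternatives were DESeq2 1.42.0, limma-voom (limma 3.58.1), other scaling factors and filters, and libraries left out. Overlapping genes and copies came from GENCODE M21 with blastn 2.17.0.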

Additional observations from a re-analysis of the deposited data

How the results depend on the processing

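Over 27 gene and comparison pairs and their alternatives, 541 of 576 values kept direction and side of the threshold. With the sign kept, 10 lost the call and 10 gained it, and 15 changed sign. Among these 15, Hscb in MI against Sham and Iscu in MI+BPD against Sham also lost the call, both with library totals only. In MI+BPD against MI, genes called were 51 with DESeq2, 1063 with limma-voom and 0 to 1353 with 1 library left out, and members called were 1 with limma-voom and 0 to 5 with 1 library left out. Members called in MI+BPD against Sham were 5 with library totals only. That scaling moved the share of called genes that were higher to 85.6% in MI against Sham, beside 53.6% with TMM, and to 86.8% in MI+BPD against Sham, beside 53.4%. It changed the sign of Hscb (0.27) in MI against Sham, of Iscu (0.0015) and Hscb (0.17) in MI+BPD against Sham, and of Lyrm4 (-0.065) and Hscb (-0.11) in MI+BPD against MI. In MI+BPD against MI, Hscb ran from -0.016 to 0.19 with 1 library left out and was -0.0017 with totals without mitochondrial and haemoglobin genes (chosen after seeing the data). Without MI 1 and MI+BPD 1, Glrx5 was -0.041 and Lyrm4 -0.073. With the heart muscle score as a covariate, Nfs1 was -0.027, Isca1 -0.025, Glrx5 -0.16, Nfu1 -0.014, Bola3 -0.089 and Lyrm4 -0.021. The cause of these changes was not tested.

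Hscb, with 87 counts in its lowest library, also lost its call in MI against Sham with no filter (adjusted p = 0.0628) and with totals without mitochondrial and haemoglobin genes (-0.13, adjusted p = 0.474, 8 members called). In MI+BPD against Sham it gained a call in 4 alternatives. These were DESeq2 (adjusted p = 0.0490), median-ratio factors, and the fits without Sham replicate 2 or without MI+BPD replicate 3. Libraries with the same number had residual correlations of -0.158 to 0.194, and not every library correlated best with its own number, so the numbers were not used as pairs. With a replicate block, 8457 genes and 8 members were called in MI+BPD against Sham, 0 and 0 in MI+BPD against MI, and 10054 and 9 in MI against Sham.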
